A study of Mus musculus with 6 samples.

Results

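The genes described here are 10 autophagy genes, several of which are needed to pack the granules of Paneth cells: Ulk1, Becn1, Atg16l1, Atg5, Atg7, Map1lc3b, Gabarapl1, Sqstm1, Irgm1 and Lrrk2. They were chosen by name, by matching the gene symbol, and all 10 were found among the 17526 genes of the count table. RNA was sequenced from isolated small intestinal crypts of mice, with 3 knockout and 3 floxed control libraries. The knockouts are labelled VKO and as lacking Fpr2, a receptor for formylated peptides, in the intestinal epithelium. The controls are labelled f/f and as wild type, so the floxed Fpr2 allele is in both groups. The labels name neither the Cre driver nor the strain, age or sex of the mice. Whether each library is 1 animal is not stated either, and p-values therefore reflect library-to-library spread, part of which may be technical. Fpr2 itself was not analysed here, and the genotype labels are taken as given.

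Autophagy wraps cytoplasm, organelles or bacteria in a double membrane and delivers them to the lysosome. The ULK kinase complex starts the process, a lipid kinase complex built on Beclin marks the membrane, and linked conjugation steps attach proteins of the Atg8 family (the LC3 and GABARAP proteins) to it, where receptors such as p62 bring in cargo. In mouse Paneth cells, the antimicrobial secretory cells of the crypt base, loss of Atg16l1, Atg5 or Atg7 disturbs the lysozyme granules, and Irgm1 and Lrrk2 have been tied to the same granules.

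Total estimated counts ran from 16542900 to 16859900 in the knockouts and from 11108500 to 16695300 in the floxed controls (exact two-sided permutation p = 0.2). With 3 against 3 libraries that test cannot give a p under 0.1, so it cannot decide whether depth differed. Levels are given in CPM, counts scaled to a common library size by TMM, and fold changes are log2 values of knockout over floxed control with SE from edgeR's quasi-likelihood test, with p-values adjusted by Benjamini-Hochberg over all 12943 genes tested. Crypt libraries mix cell types, so fewer cells of a type and less RNA per cell cannot be told apart. Stem cell and Paneth cell markers of the crypt were detected in every library. By mean log2 level, centred on the 6 libraries, floxed control 2 lay among the knockouts on marker lists of T cells and of B and plasma cells. Floxed controls 1 and 3 were higher by that measure. By summed CPM, mostly Cd74, the B and plasma cell list was highest in floxed control 2 (1323 CPM), and floxed control 1 had 852.2 CPM.

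No member passed the test: 0 of the 9 tested members had an adjusted p under 0.05, where 2 of all 12943 genes did, or 0.0155% (0.00773% higher and 0.00773% lower in knockouts). The 5 members Gabarapl1, Sqstm1, Ulk1, Atg7 and Map1lc3b had every knockout library below every floxed control, a pattern shown by 10.3% of all genes tested. Becn1 had every knockout above every floxed control, as had 6.99% of all genes. Atg16l1, Atg5 and Irgm1 overlapped between the groups, and Lrrk2 was below the filter on low counts. At an unadjusted p under 0.05, 4 of 9 members were lower in the knockouts and 0 were higher, against 9.63% and 4.09% of all genes, or 13.7% in either direction. The median log2 change over the 9 tested members was -0.35, beside -0.013 over all genes tested, and single values ran from -0.86 to 0.29. Without floxed control 3 the members' median was -0.17. DESeq2's Wald test put 2 members, Sqstm1 and Gabarapl1, under an adjusted p of 0.05, both lower in knockouts; it called 2.69% of the genes to which it gave an adjusted p, and 2.4% as lower.

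**Figure D1:**
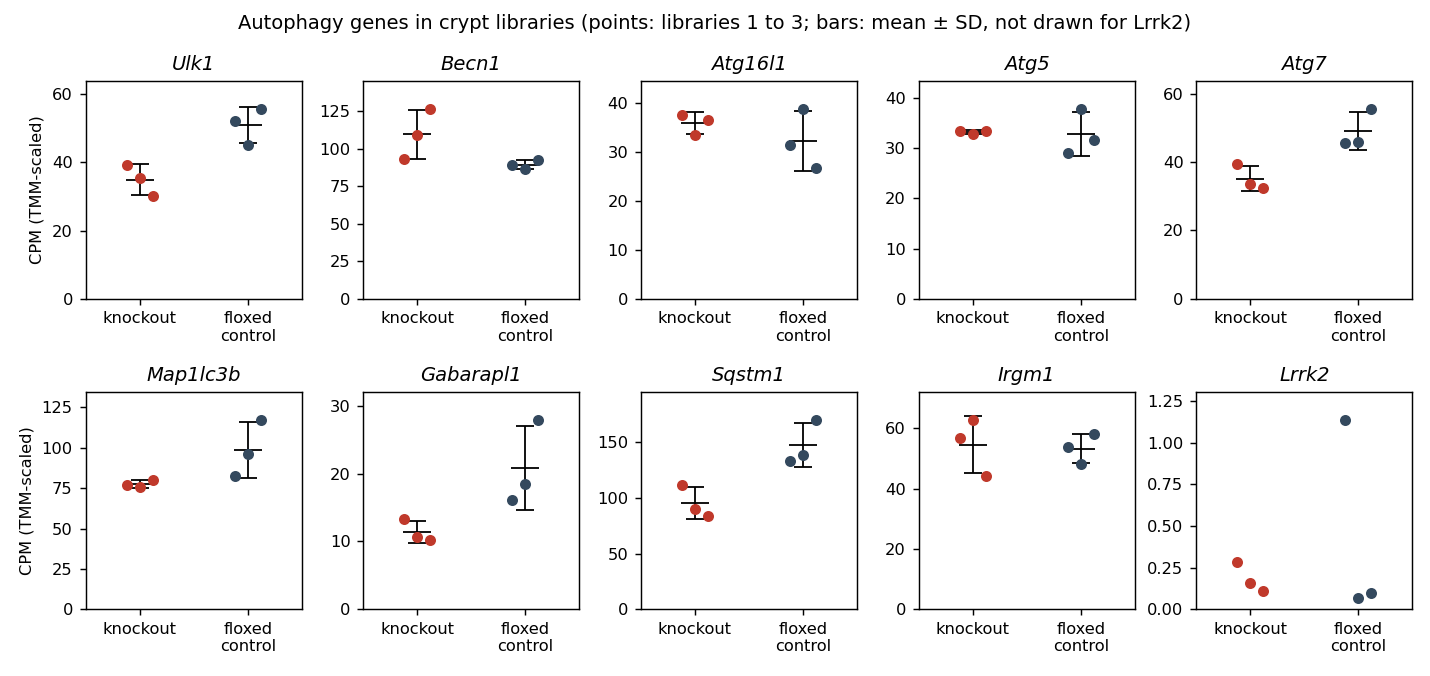
CPM of the 10 members in each library, with knockouts left of floxed controls and bars for the mean and SD of 3 libraries (none for Lrrk2). The groups are apart for Ulk1, Becn1, Atg7, Map1lc3b, Gabarapl1 and Sqstm1, and overlap for the other 4 genes.

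Ulk1 (gene 22241, chromosome 5, 110784489 to 110810120 of GRCm38.p6, minus strand) encodes the kinase that starts autophagosome formation. It stood at 39.3, 35.4 and 30.2 CPM in knockouts 1, 2 and 3 and at 52.1, 45.1 and 55.5 CPM in floxed controls 1, 2 and 3. The highest knockout thus lay below the lowest control. The log2 change was -0.54 ± 0.16 (95% interval -0.90 to -0.18, adjusted p = 0.193 by edgeR). It was -0.31 without floxed controls 1 and 3, a setting that leaves 1 control library.

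Becn1 (gene 56208, chromosome 11, 101288258 to 101302286, minus strand), for Beclin of the lipid kinase complex, was the member with the most positive change. It had 93.5, 109.3 and 126.3 CPM in knockouts 1, 2 and 3, against 89.3, 86.6 and 92.8 CPM in floxed controls 1, 2 and 3. Knockout 1 lay within 1 CPM of the highest control, and knockout 3 stood farthest from them. The log2 change of 0.29 ± 0.16 did not pass (adjusted p = 0.456 by edgeR) and was 0.18 without knockout 3. Without floxed control 1 the knockouts and controls overlapped. Exons of Becn1 overlap Cntd1 on the opposite strand and its estimated counts were not whole, so reads could be split with other genes. The strand setting of the counting is not given.

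Atg16l1 (gene 77040, chromosome 1, 87756007 to 87792428, plus strand) encodes the scaffold that places the conjugation machinery on the membrane. It had 37.6, 33.3 and 36.6 CPM in knockouts 1, 2 and 3 and 31.3, 38.6 and 26.6 CPM in floxed controls 1, 2 and 3. All 3 knockouts lay inside the range of the controls, and the log2 change was 0.15 ± 0.18 (95% interval -0.24 to 0.54; adjusted p = 0.762 by edgeR), with values of 0.31 without floxed control 2, 0.073 without floxed control 3 and -0.048 without floxed controls 1 and 3. Atg5 (gene 11793, chromosome 10, 44268322 to 44364299, plus strand) encodes the partner to which Atg12 is joined. Its values of 33.5, 32.8 and 33.5 CPM in knockouts 1, 2 and 3 lay inside the control range of 29.1, 37.8 and 31.7 CPM in floxed controls 1, 2 and 3. The log2 change of Atg5 was 0.017 ± 0.16, with a 95% interval of -0.34 to 0.37 (adjusted p = 0.978 by edgeR), and it was -0.033 without floxed control 1 and -0.12 without floxed controls 1 and 3.

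Atg7 (gene 74244, chromosome 6, 114643127 to 114860604, plus strand), the E1-like enzyme that activates Atg12 and the Atg8 proteins, had groups that were apart; its difference from Atg5 and Atg16l1 was not tested. Knockouts 1, 2 and 3 had 39.4, 33.6 and 32.5 CPM, and floxed controls 1, 2 and 3 had 45.7, 46.0 and 55.4 CPM. The means were 35.1 ± 3.71 CPM in knockouts and 49.0 ± 5.54 CPM in floxed controls (SD, n = 3 each). The log2 change was -0.48 ± 0.16 (adjusted p = 0.227 by edgeR).

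Gabarapl1 (gene 57436, chromosome 6, 129533192 to 129542331, plus strand), an Atg8 protein of the GABARAP branch, had the largest change among the members. It stood at 13.3, 10.7 and 10.2 CPM in knockouts 1, 2 and 3, against 16.2, 18.4 and 27.9 CPM in floxed controls 1, 2 and 3. Every knockout lay below every control, and floxed control 3 stood well above the other two. The log2 change was -0.86 ± 0.23, with a 95% interval of -1.37 to -0.35 (adjusted p = 0.160 by edgeR and 0.0461 by DESeq2). It was -0.56 without floxed control 3. Exons of the gene overlap the opposite-strand transcript 1700101I11Rik.

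Map1lc3b (gene 67443, chromosome 8, 121590438 to 121598760, plus strand) encodes LC3B, the Atg8 protein most used to mark autophagosomes. It had 77.1, 75.4 and 80.3 CPM in knockouts 1, 2 and 3 and 82.6, 96.2 and 117.0 CPM in floxed controls 1, 2 and 3. The knockouts were close to each other while the controls spread, and knockout 3 lay just under floxed control 1. The log2 change of -0.35 ± 0.17 did not pass (adjusted p = 0.392 by edgeR) and was -0.17 without floxed control 3 and -0.25 without floxed controls 1 and 3. Its exons overlap Zcchc14 on the opposite strand and its estimated counts were not whole.

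Sqstm1 (gene 18412, chromosome 11, 50200152 to 50210820, minus strand) encodes p62, the receptor that ties ubiquitin-marked cargo to the Atg8 proteins and is itself degraded with it. It had 111.3, 90.4 and 83.7 CPM in knockouts 1, 2 and 3, against 133.5, 138.7 and 169.9 CPM in floxed controls 1, 2 and 3. The knockouts averaged 95.1 ± 14.4 CPM and the floxed controls 147.4 ± 19.7 CPM (SD, n = 3 each), with no overlap. The log2 change was -0.63 ± 0.18 (95% interval -1.02 to -0.24; adjusted p = 0.172 by edgeR and 0.0473 by DESeq2). Knockout 1 and floxed control 2 had the lowest mean centred log2 levels of a clock gene list, at -0.58 and -0.63, against 0.23 to 0.40 in the other 4 libraries. Without these libraries Sqstm1 fell by edgeR (log2 -0.80 ± 0.19, adjusted p = 0.0412), and it was the only member that passed. Knockout 1 was the knockout nearest the controls for Sqstm1, Gabarapl1 and Ulk1. For Ulk1, floxed control 2 was also the control nearest the knockouts. With these libraries left out, Gabarapl1 and Ulk1 had adjusted p of 0.0517 and 0.0519 by edgeR. In that setting 7.06% of all genes were called, and 5.64% were called as lower. Exons of Sqstm1 overlap Mrnip on the opposite strand.

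**Figure D2:**
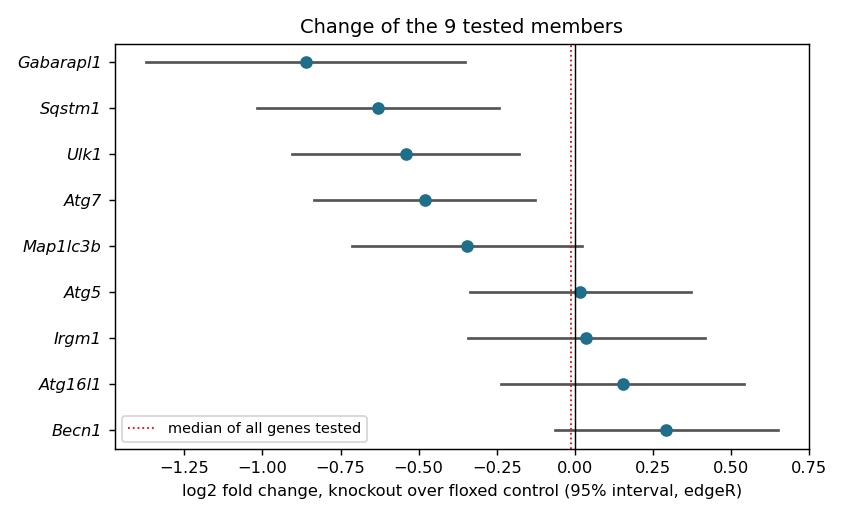
Log2 fold change of the 9 tested members, knockout over floxed control, with 95% intervals from edgeR; the dotted line is the median of all genes tested. The intervals of Gabarapl1, Sqstm1, Ulk1 and Atg7 lie below 0 before adjustment, and the other 5 cross 0.

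Irgm1 (gene 15944, chromosome 11, 48865245 to 48871420, minus strand) encodes an interferon-inducible GTPase that governs autophagy of intracellular bacteria. It had 56.9, 62.7 and 44.2 CPM in knockouts 1, 2 and 3 and 53.6, 48.2 and 58.0 CPM in floxed controls 1, 2 and 3. The groups overlapped, and the log2 change was 0.036 ± 0.17 (95% interval -0.34 to 0.42; adjusted p = 0.955 by edgeR). The value was -0.070 without knockout 2 and -0.025 without floxed control 2. The estimated counts of Irgm1 were not whole, so reads may be shared with related genes. Knockout 3 was the lowest library for Irgm1, and it was also lowest on the immunity GTPase list, which includes Irgm1 itself. The mean centred log2 level of that list was -0.82 in knockout 3, against 0.22 and 0.56 in knockouts 1 and 2. It was 0.094, -0.42 and 0.36 in floxed controls 1, 2 and 3. Irgm2 and Igtp, relatives of Irgm1, stood at 10.7 and 10.6 CPM in knockout 3, and at 25.1 and 32.3 CPM in knockout 1. Of the 10 tested genes of that list, 0 passed and 0 had groups apart; the median change was 0.051. The 3 with the smallest p were the GTPases Gbp6 (log2 0.77 ± 0.38), Tgtp1 (-0.53 ± 0.39) and Gbp3 (0.57 ± 0.66). Of 8 tested genes of the interferon gamma response 0 passed, with a median of -0.037, among them Ciita, the activator of MHC class II genes (-0.42 ± 0.38), and Socs1, a feedback inhibitor (-0.34 ± 0.33).

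Lrrk2 (gene 66725, chromosome 15, 91672791 to 91816124, plus strand), a kinase reported to sort lysozyme into Paneth granules in mice, was barely detected. Its estimated counts were 5, 3.09 and 2 in knockouts 1, 2 and 3, against 13, 1 and 1 in floxed controls 1, 2 and 3. Floxed control 1 alone exceeded 5 counts. The gene was removed by the filter on low counts; with no filter its log2 change was -1.12 ± 0.91 (adjusted p = 0.696 by edgeR), so a difference was not detectable at this depth. B cells are also known to express the gene. The mean centred log2 level of the 7 tested B and plasma cell markers was -0.089, -0.88 and -0.78 in knockouts 1, 2 and 3, against 1.46, -0.67 and 0.96 in floxed controls 1, 2 and 3. Their summed level, mostly Cd74, ran from 565.5 to 1124 CPM in knockouts and from 852.2 to 1323 CPM in floxed controls, and none was at 0 in all libraries. The part of B cells in the Lrrk2 counts was not tested. Genes around Lrrk2 were measured better. Rab2a, which acts in granule sorting, and the Lrrk2 substrates Rab8a and Rab10 had log2 changes of 0.029 ± 0.15, -0.019 ± 0.18 and -0.0090 ± 0.15. Of the 7 tested genes of this list 0 passed, and Rab12, a substrate as well, had the smallest p (0.34 ± 0.22), followed by the bacterial sensor Nod2 (-0.30 ± 0.35) and Rab29 (-0.11 ± 0.19).

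Upstream sequences are shown for the 3 members with the most negative changes and for Irgm1, whose groups overlapped, so that the stretches before their starts can be compared. They are RefSeq promoter entries of build GRCm38.p6, found for 8 of the 10 members, read 5′ to 3′ on the gene's strand and cut where an annotated UTR or gene start begins. Positions count back from -1, the base before the annotated start of the entry. Capitals mark matches on either strand to 4 motifs: the E-box CACGTG, part of the site that TFEB binds in lysosomal genes, the core of the interferon-stimulated element (a pair of GAAA blocks around any 2 bases), the gamma-activated site TTCNNNGAA and the GC box GGGCGG.
Gabarapl1, chr6:129532942-129533159, plus strand: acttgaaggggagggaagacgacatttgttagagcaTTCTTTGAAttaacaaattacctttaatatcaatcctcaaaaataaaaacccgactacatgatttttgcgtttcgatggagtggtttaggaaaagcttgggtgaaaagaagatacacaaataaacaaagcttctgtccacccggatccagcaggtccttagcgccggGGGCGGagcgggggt
Sqstm1, chr11:50210828-50211070, minus strand: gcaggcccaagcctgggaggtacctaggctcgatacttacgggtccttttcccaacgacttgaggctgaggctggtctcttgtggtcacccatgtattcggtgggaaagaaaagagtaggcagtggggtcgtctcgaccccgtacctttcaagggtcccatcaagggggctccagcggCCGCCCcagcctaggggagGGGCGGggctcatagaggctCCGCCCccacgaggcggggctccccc
Ulk1, chr5:110810121-110810331, minus strand: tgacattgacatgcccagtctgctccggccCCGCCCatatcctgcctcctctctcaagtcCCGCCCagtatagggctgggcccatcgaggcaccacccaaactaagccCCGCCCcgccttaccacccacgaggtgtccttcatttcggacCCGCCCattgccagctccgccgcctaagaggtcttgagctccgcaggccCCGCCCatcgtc
Irgm1, chr11:48871421-48871670, minus strand: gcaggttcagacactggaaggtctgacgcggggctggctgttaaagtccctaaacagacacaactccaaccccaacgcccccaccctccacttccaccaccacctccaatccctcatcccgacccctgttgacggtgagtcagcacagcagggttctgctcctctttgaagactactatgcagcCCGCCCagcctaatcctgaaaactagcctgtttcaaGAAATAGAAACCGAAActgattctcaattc

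Irgm1 held 1 GC box and 2 overlapping matches to the interferon-stimulated core, at -30 to -21 and -24 to -15, where 2.98% of 32851 promoter windows of 250 bases hold at least 1. In the complete windows, Ulk1 held 5 GC boxes, Sqstm1 held 3 and Gabarapl1 held 2, and 32.7% of all windows hold 1 or more. Gabarapl1 also had a gamma-activated match at -214 to -206, a motif found in 7.02% of windows. None of these 4 windows contained CACGTG, which 6.02% of windows hold. Among the matched members Atg5 held it at -14 to -9 and Atg7 at -132 to -127. The Atg5 entry starts 17 bases inside the gene, so its match lies past the annotated gene start and not upstream of it. The Atg7 window lies before a start that is internal to the gene.

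Levels of different genes were compared per length, as CPM per kilobase of exon (coding transcripts of GENCODE vM21). In the knockouts Sqstm1 was highest at 33.7 ± 5.11, followed by Irgm1 at 23.7 ± 4.09 and Becn1 at 23.3 ± 3.48, a pair within their SD. Map1lc3b (15.0 ± 0.479) and Atg5 (14.1 ± 0.162) came next, then Atg16l1 (11.3 ± 0.700), Atg7 (8.60 ± 0.909), Ulk1 (6.69 ± 0.878) and Gabarapl1 (6.28 ± 0.907), of which Ulk1 and Gabarapl1 lay within their SDs. In the floxed controls Sqstm1 led at 52.2 ± 6.96 and Irgm1 followed at 23.1 ± 2.13. Map1lc3b (19.0 ± 3.34) and Becn1 (19.0 ± 0.653) came next and were within the SD of Map1lc3b. Below them were Atg5 (13.97 ± 1.89), Atg7 (12.003 ± 1.36), Gabarapl1 (11.4 ± 3.41), Atg16l1 (10.1 ± 1.91) and Ulk1 (9.74 ± 1.02). From Atg7 down, neighbours lay within the larger of their SDs, while Atg5 and Atg7 differed by slightly more than either SD. Lrrk2 was last in both groups, at 0.0224 ± 0.0106 in knockouts and 0.0523 ± 0.0735 in floxed controls (SD, n = 3 each). Among the 5 Atg8 family genes, Gabarap, which is no member, was by far the most abundant per length, with 210.0 ± 16.2 in knockouts and 254.5 ± 53.2 in floxed controls, and Gabarapl1 and Map1lc3a were the least abundant in both groups.

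The wider machinery was described with 7 lists holding 69 genes, 8 of the members among them; 68 were tested and 0 passed. Of these, 51 had a negative log2 change and 17 a positive one, with a median of -0.13. That median was -0.063 without floxed control 1, -0.079 without floxed control 3 and -0.071 without both. With DESeq2 size factors, and with TMM without the 50 most abundant genes, 46 of the 68 were negative. Over all genes tested 51.9% had a negative change, the share to set beside the counts of signs here and below. Without the members, 60 tested genes had a median of -0.12, and 46 were negative, or 76.7%. Of these 60, 8 had an unadjusted p under 0.05 and were lower, or 13.3%, against 9.63% of all genes, and 12 had every knockout below every control, or 20%, against 10.3%. No gene of the 7 lists fell or rose by edgeR with all 6 libraries. Without floxed control 2, 5 of them fell by edgeR, where 7.21% of all genes were called and 5.79% were called as lower.

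All 5 genes of the initiation list had a negative change, with a median of -0.38. Beside Ulk1, Atg13, a subunit of the same complex, had 59.0, 44.3 and 42.7 CPM in knockouts 1, 2 and 3 and 64.5, 63.3 and 62.8 CPM in floxed controls 1, 2 and 3 (log2 -0.38 ± 0.17). The related kinase Ulk2 had -0.44 ± 0.23. In the nucleation list of 8 genes the median was -0.073, and 0 passed. Beside Becn1, the lipid kinase Pik3c3 and its partners Atg14 and Pik3r4 had 0.011 ± 0.30, -0.016 ± 0.19 and -0.028 ± 0.17. Rubcn, an inhibitor of the complex, had -0.25 ± 0.15 and Ambra1, a Beclin-binding scaffold, -0.21 ± 0.16. The difference between Becn1 and these genes was not tested. The 10 genes that supply membrane had a median of -0.13, with Wipi1, which reads the lipid mark, at 10.3, 7.89 and 7.22 CPM in knockouts 1, 2 and 3 and 15.3, 10.9 and 16.7 CPM in floxed controls 1, 2 and 3 (log2 -0.75 ± 0.23, adjusted p = 0.192 by edgeR). Atg9b and Atg2a, for a scramblase and a lipid transfer protein, had -0.93 ± 0.40 and -0.34 ± 0.16. The level of Atg9b was low, at 0.51, 0.75 and 0.50 CPM in knockouts 1, 2 and 3. In floxed controls 1, 2 and 3 Atg9b had 1.31, 1.18 and 0.89 CPM.

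Of the 12 conjugation genes 7 were positive and 5 negative, with a median of 0.015, and 0 passed. After Atg7, the smallest p was that of Tecpr1, a gene for a tether between autophagosome and lysosome (-0.50 ± 0.18). Atg3, which transfers the Atg8 proteins to lipid, had 0.23 ± 0.17. All 5 Atg8 genes were negative, with a median of -0.35. Map1lc3a, close to Map1lc3b, had 8.29, 7.78 and 8.06 CPM in knockouts 1, 2 and 3, against 12.1, 11.01 and 17.2 CPM in floxed controls 1, 2 and 3 (log2 -0.73 ± 0.22). Gabarap and Gabarapl2 overlapped between the groups (-0.28 ± 0.20 and -0.19 ± 0.16).

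Of 15 tested receptor genes 12 were negative, with a median of -0.19. The receptors of endoplasmic reticulum turnover Ccpg1 and Retreg1 came beside Sqstm1. Ccpg1 stood at 39.1, 39.2 and 31.8 CPM in knockouts 1, 2 and 3 and at 68.1, 45.0 and 67.0 CPM in floxed controls 1, 2 and 3 (log2 -0.71 ± 0.19, adjusted p = 0.163 by edgeR). Retreg1 had -0.74 ± 0.22, with 13.1 to 18.8 CPM in knockouts and 19.4 to 28.5 CPM in floxed controls. Without floxed control 2, Ccpg1 and Retreg1 fell (log2 -0.87 ± 0.16 and -0.90 ± 0.20, adjusted p = 0.0159 and 0.0318 by edgeR), as did Wipi1, Tecpr1 and Map1lc3a. In that setting 5.79% of all genes were called as lower. The 13 fusion genes had a median of -0.097 and included the 1 machinery gene that was higher at an unadjusted p under 0.05, Vps16 of the tethering complexes (0.34 ± 0.15, adjusted p = 0.357 by edgeR). Vamp8, a fusion SNARE, had -0.26 ± 0.22 and Vps18, a tethering subunit, -0.22 ± 0.19.

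**Figure D3:**
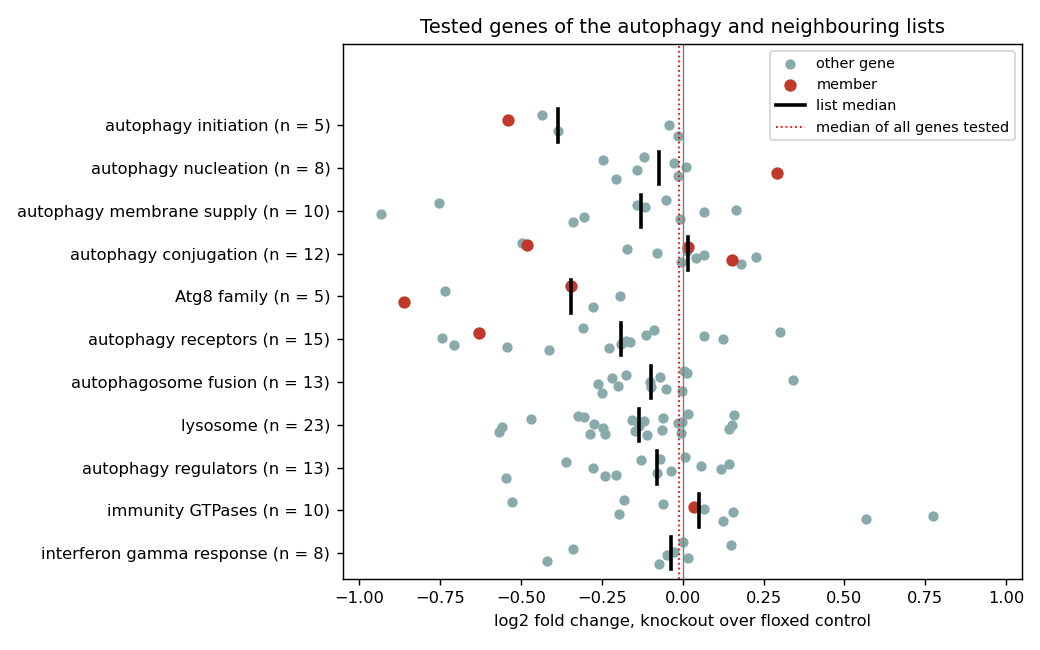
Log2 fold change, knockout over floxed control, of every tested gene in 11 lists, with members in red, a black bar for the list's median and a dotted line for the median of all genes tested. The initiation and Atg8 lists lie wholly below 0, at medians of -0.38 and -0.35, and the conjugation and immunity GTPase lists lie around 0.

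Of 23 lysosome genes 19 were negative and 0 passed, with a median of -0.13. Cln3, a lysosomal membrane protein, had -0.57 ± 0.19, the protease Ctsl -0.56 ± 0.21 and the membrane protein Lamp2 -0.47 ± 0.18. Of 13 tested regulators 9 were negative, with a median of -0.080. Flcn, which controls the nutrient signal to TFE3, had -0.55 ± 0.17, Tfe3, an activator of lysosomal genes, -0.36 ± 0.15, and Rptor of the mTOR complex -0.28 ± 0.19. Tfeb, the relative of Tfe3, overlapped between the groups (-0.13 ± 0.18). Of 9 stress sensor genes of secretory cells 0 passed and the median was -0.35. Ern2, the sensor of mucus-secreting cells, had 59.98, 46.0 and 28.7 CPM in knockouts 1, 2 and 3 and 129.5, 55.2 and 109.0 CPM in floxed controls 1, 2 and 3 (log2 -1.12 ± 0.32, adjusted p = 0.181 by edgeR). Its groups overlapped, as did those of the sensors Atf6 (-0.51 ± 0.23) and Ern1 (-0.87 ± 0.42).

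Marker lists of several cell types were lower in the knockouts alongside the lower members. All 19 genes of a Paneth cell list had every knockout below every floxed control, and their summed level ran from 31031 to 46201 CPM in knockouts and from 91792 to 175025 CPM in floxed controls; 1 of the 19, Defa35, passed, and none was at 0 in any library. The mean centred log2 level of that list was highest in floxed control 3, followed by floxed controls 2 and 1, nearly tied at 0.55 and 0.53, and then knockouts 1, 2 and 3. Gabarapl1, Sqstm1 and Atg7 had their libraries in this order, as had 0.773% of all genes tested. Only a gene with every knockout below every floxed control can have it. Of all genes tested, 1339 had every knockout below every control, and 100 of them had this order. By summed level floxed control 1 came before floxed control 2, an order that Ulk1 had and these 3 members did not. Map1lc3b matched neither order. On a goblet cell list of 9 genes, 5 had every knockout below every control, and the summed level was 8115 to 12779 CPM in knockouts and 13586 to 19931 CPM in floxed controls. Of 10 enteroendocrine markers 9 had every knockout below every control, as had 5 of 9 tuft cell markers and 7 of 8 stem cell markers, and 0 of these passed. The summed level of the enteroendocrine list was 367.1 to 502.3 CPM in knockouts and 585.6 to 912.4 CPM in floxed controls, and that of the stem cell list was 1368 to 1879 CPM in knockouts and 1964 to 2516 CPM in floxed controls. The tuft cell list, whose sums overlapped, had 86.6 to 133.6 CPM in knockouts and 128.5 to 274.3 CPM in floxed controls. The T cell list summed to 46.0 to 55.9 CPM in knockouts and 54.4 to 194.3 CPM in floxed controls, with floxed control 2 within the knockouts' range. Not all lists were apart. The enterocyte list summed to 3140 to 6974 CPM in knockouts and 3930 to 8274 CPM in floxed controls. Its median log2 change was -0.23, and 0 of its 9 genes had groups apart. Of 6 tested myeloid markers 3 were positive and 3 negative, with a median of 0.040. The part of these cells in the members' values was not tested.

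**Figure D4:**
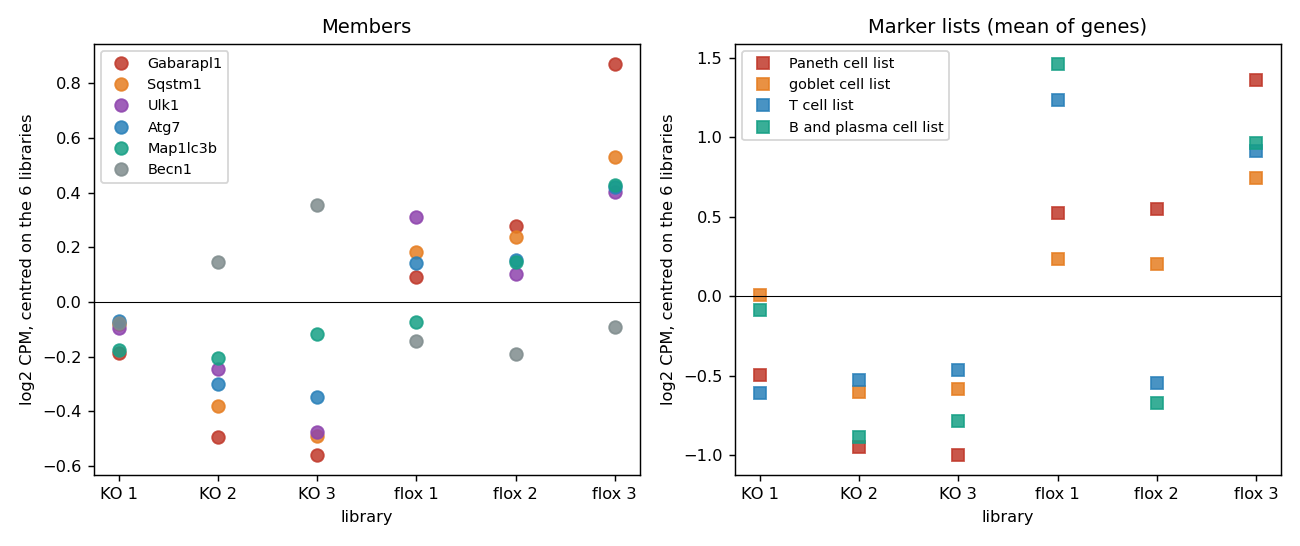
Log2 CPM centred on the 6 libraries (KO, knockout; flox, floxed control) for 6 members at left and, at right, for 4 marker lists as the mean of their genes. Knockout 3 is lowest and floxed control 3 highest for both Gabarapl1 and the Paneth list, whereas the T cell list places floxed control 2 among the knockouts.

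Gabarapl1 had the smallest p of the members, and the genes with the most similar levels over the 6 libraries were Guca2a, for the peptide guanylin, Lrrc26, for a potassium channel subunit, and Tubb2b, for a beta-tubulin. Their root mean square differences from Gabarapl1 were 0.0723, 0.0906 and 0.0983 on the centred log2 scale, the smallest of 9676 genes compared. Guca2a had 475.8, 407.1 and 423.4 CPM in knockouts 1, 2 and 3 and 620.9, 654.4 and 1073 CPM in floxed controls 1, 2 and 3 (log2 -0.85 ± 0.24, adjusted p = 0.181 by edgeR). Like Gabarapl1, each of the 3 genes had every knockout below every floxed control, as had 10.3% of all genes tested. They were chosen for levels like those of Gabarapl1 in the same libraries, so this shared pattern largely follows from the choice.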

How the data were processed

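Crypt mRNA of 3 knockout and 3 floxed control libraries was read as 50 bp single ends, per the labels' protocols. The build is mm10, per the submitters' processing notes; the aligner, counter and annotation are not named in the labels. Deposited values are estimated counts per gene, not normalised, and 31.1% to 35.2% of them per library are not whole; they were rounded before testing. Groups were compared with the quasi-likelihood test of edgeR 4.0.16 (R 4.3.3) after filterByExpr and TMM, with robust glmQLFit, glmQLFTest and Benjamini-Hochberg adjustment over 12943 genes, with a biological coefficient of variation of 20.3%. Centred levels are log2 CPM with a prior count of 2. DESeq2 1.42.0, limma-voom (limma 3.58.1), other scaling and filters, a replicate block and left-out libraries were alternatives. The scripts were tested on simulated data. Python 3.11.15 with pandas 2.3.3 and matplotlib 3.10.9 read positions and sequences of RefSeq GRCm38.p6 and GENCODE vM21, the assembly of mm10. Members, gene lists and left-out library pairs were chosen with earlier results of these data known. Genes of the lists were named if called or among the 3 smallest p of a pathway list, and the genes most like Gabarapl1 were taken at an average log2 CPM of at least 3; Tfeb, Irgm2, Igtp, Gabarap, Gabarapl2, Pik3c3, Atg14, Pik3r4, Rab2a, Rab8a and Rab10 fall outside that rule and were picked once their values had been looked at. For 1 gene that the rule names, the result is not reported here. The depth of 11108500 to 16859900 counts limits precision for low genes such as Lrrk2. No pair of libraries was a duplicate.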

Additional observations from a re-analysis of the deposited data

How the results depend on the processing

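The 0 members and 0 machinery genes called by edgeR became 2 and 2 by DESeq2, which called 2.69% of the genes given an adjusted p. Sqstm1 (log2 -0.62, adjusted p = 0.0473) and Gabarapl1 (log2 -0.85, adjusted p = 0.0461) passed by DESeq2. They became 1 and 4 by edgeR without floxed control 2 and knockout 1, where Sqstm1 stood at -0.80. In that setting 7.06% of all genes were called, and 5.64% were called as lower. The log2 changes of Gabarapl1, Sqstm1, Ulk1, Atg7 and Map1lc3b stayed negative and that of Becn1 positive under all 15 alternatives. The 3 members near 0 changed sign under some: Irgm1 was -0.070 without knockout 2, -0.025 without floxed control 2 and -0.058 without floxed control 2 and knockout 1, Atg5 was -0.033 without floxed control 1 and -0.12 without floxed controls 1 and 3, and Atg16l1 was -0.048 without floxed controls 1 and 3. With single libraries left out, the log2 change of Irgm1 ran from -0.070 to 0.17, that of Atg5 from -0.033 to 0.14, that of Atg16l1 from 0.073 to 0.31 and that of Sqstm1 from -0.76 to -0.48, machinery genes called ran from 0 to 5, members with every knockout above every control from 0 to 3, and genes called from 0 to 955, the highest without floxed control 2. Members with every knockout above every control were 3 without floxed control 2 and knockout 1, where 27.0% of all genes tested had that pattern. The share of all genes was 20.3% without floxed control 2 alone, and 6.99% with all 6 libraries. The count of all genes called, 2 by edgeR, was 0 with DESeq2 size factors, 0 with TMM without the 50 most abundant genes, 342 by DESeq2, 1 by limma-voom, 67 with no filter, 39 with a replicate block, 12 without floxed controls 1 and 3 and 920 without floxed control 2 and knockout 1. Deviations of same-numbered libraries correlated at -0.18, -0.27 and 0.068. The replicate numbers thus showed no consistent pairing, though 3 libraries per group cannot exclude one. The replicate block called 0 members, as did the test without it. In every case the cause was not tested. Lrrk2, removed by the filter with all 6 libraries, did not pass with no filter.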
